A study of Mus musculus with 5 samples.

Results

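Signals of 10 genes of the postsynaptic side of the neuromuscular junction were read in soleus myocytes from the arrays of 5 mice. They were taken by gene symbol, and no signal entered the rule, although earlier results of these data were known when the list was drawn up: the muscle acetylcholine receptor subunits *Chrna1*, *Chrnb1*, *Chrnd*, *Chrne* and *Chrng*, the receptor clustering genes *Musk*, *Dok7* and *Rapsn*, and the synaptic acetylcholinesterase genes *Colq* and *Ache*. These 10 genes had 11 of the 22206 probe sets on the array, and were 10 of the 19505 genes left once probe sets of a gene were averaged. The mice, numbered 1, 3, 11, 14 and 16, formed a single group of sedentary HA-RiboTagMyo animals, with no other genotype, treatment or time to set them against. They carried Myogenin-Cre and RiboTag-Rpl22fl/fl-HA, so that cells with a history of *Myog* expression make an HA-tagged ribosomal protein, and anti-HA antibody pulled down ribosomes and bound RNA from the whole left soleus. The Methods describe sexually mature male mice, unless otherwise stated, and the labels give neither age nor sex. Junctional and extrajunctional stretches of the fibers went into the same eluate, so few nuclei making a transcript and little of it per nucleus cannot be told apart.

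The neuromuscular junction is the synapse at which a motor axon excites a muscle fiber. Acetylcholine opens a pentameric receptor made of a pair of alpha subunits with a beta, a delta and either a gamma or an epsilon subunit. In rodents, the gamma subunit belongs to the fetal receptor and is replaced by epsilon in the weeks after birth, and denervated fibers make gamma again. Agrin from the nerve binds LRP4 and activates the kinase MuSK, which works with the adaptor DOK7, and rapsyn then anchors the receptors in clusters. Acetylcholinesterase, held in the synaptic cleft by the collagen tail ColQ, ends the signal. Most of these genes are transcribed mainly by the few nuclei beneath the synapse.

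Each value below is a log2 signal as the authors deposited it, with 1 array per mouse. The series has no control tissue. Background was therefore taken as the 95th percentile of 1091 odorant receptor genes within each array, the cutoff, which lay between 5.25 and 5.32. Distance is signal minus cutoff, averaged over the mice. Genes with a distance over 0 and an adjusted *p* under 0.05 were called above background (limma, two-sided, Benjamini-Hochberg over all genes), and SE is the standard error of the distance. The arrays correlated with each other at Pearson's r of 0.976 to 0.986 across probe sets, which are not independent replicates. All 10 myofiber markers checked, among them *Acta1*, *Ckm* and *Ttn*, were called. Arrays of mice 1 and 16 stood apart in all 3 Y-linked genes measured. *Eif2s3y* read 3.54 and 3.53 in mice 1 and 16, against 10.42, 11.92 and 12.73 in mice 3, 11 and 14. *Kdm5d* read 3.13 and 3.52, against 5.89, 5.80 and 6.24, and *Uty* read 4.09 and 3.93, against 6.96, 7.35 and 7.44. These values of mice 1 and 16 go against the male mice of the Methods. Signals of different probe sets depend on probe affinity as well as on RNA, so no gene was tested against another.

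The adult and fetal subunit genes are shown with DNA before their annotated span, since the data put them on opposite sides of the cutoff, and *Chrna1*, common to both receptors, is shown with them. The sequences are from RefSeq (GRCm38.p6) on the gene's own strand, which had promoter entries for 7 of the 10 members. Capitals mark CAGCTG, a form of the E-box CANNTG that myogenic factors such as myogenin bind, and CCGGAA, the N-box that binds ETS factors such as GABP and is known from synaptic gene promoters. The *Chrne* stretch is chr11:70619214-70619444 (minus strand), the *Chrng* stretch chr1:87205561-87205810 (plus strand) and the *Chrna1* stretch chr2:73580339-73580588 (minus strand).
Chrne: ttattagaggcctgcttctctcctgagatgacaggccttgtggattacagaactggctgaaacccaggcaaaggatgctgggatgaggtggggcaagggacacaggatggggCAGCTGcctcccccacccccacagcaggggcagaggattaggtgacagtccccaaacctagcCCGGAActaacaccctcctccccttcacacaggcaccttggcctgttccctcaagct
Chrng: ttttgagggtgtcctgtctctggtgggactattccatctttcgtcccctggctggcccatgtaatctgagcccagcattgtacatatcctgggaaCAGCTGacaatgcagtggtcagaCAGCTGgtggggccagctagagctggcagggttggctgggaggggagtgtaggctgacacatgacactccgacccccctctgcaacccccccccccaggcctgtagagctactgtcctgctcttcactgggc
Chrna1: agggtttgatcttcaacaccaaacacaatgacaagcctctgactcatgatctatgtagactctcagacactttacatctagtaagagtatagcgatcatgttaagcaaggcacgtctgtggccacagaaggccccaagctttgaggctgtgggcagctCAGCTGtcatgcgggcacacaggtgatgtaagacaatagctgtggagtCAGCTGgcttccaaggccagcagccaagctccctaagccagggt

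Positions are counted from the annotated start of the promoter entry. The *Chrne* stretch printed has 231 of the 250 bases and ends short of that start, because the span annotated to *Chrne* begins within the rest. It held 1 CAGCTG, 138 bases before the annotated start, and 1 CCGGAA, 76 bases before it. In *Chrng*, CAGCTG stood 155 and 132 bases before the start, and in *Chrna1* 92 and 44 bases before it, with no CCGGAA on either strand of either stretch. Within 250 bases before the start, the *Musk* promoter also held 1 CAGCTG, whereas those of *Chrnb1*, *Dok7* (2 start sites) and *Ache* held 0. None of these had CCGGAA. Of the 250 bases, only 17 for *Musk*, and 55 and 0 for the *Dok7* starts, lie before the gene's annotated span. The *Musk* match, 68 bases before its start, falls within that span. Over 32851 annotated starts, 13% of such windows held CAGCTG, 12% CCGGAA (both strands) and 66.2% CANNTG, which includes CAGCTG. These are matches of letters and not measured binding sites.

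Of the 10 genes, 9 were called above background, where the same rule called 43.5% of all genes. *Chrng* was the exception, and the same 9 were called over mice 3, 11 and 14 alone. The median distance from the cutoff was 2.41 over the 10 members and -0.12 over all genes. The same 9 members lay above the cutoff in every mouse, as did 42.5% of all genes, and *Chrng* lay below it in every mouse, as did 43.3%.

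**Figure D1:**
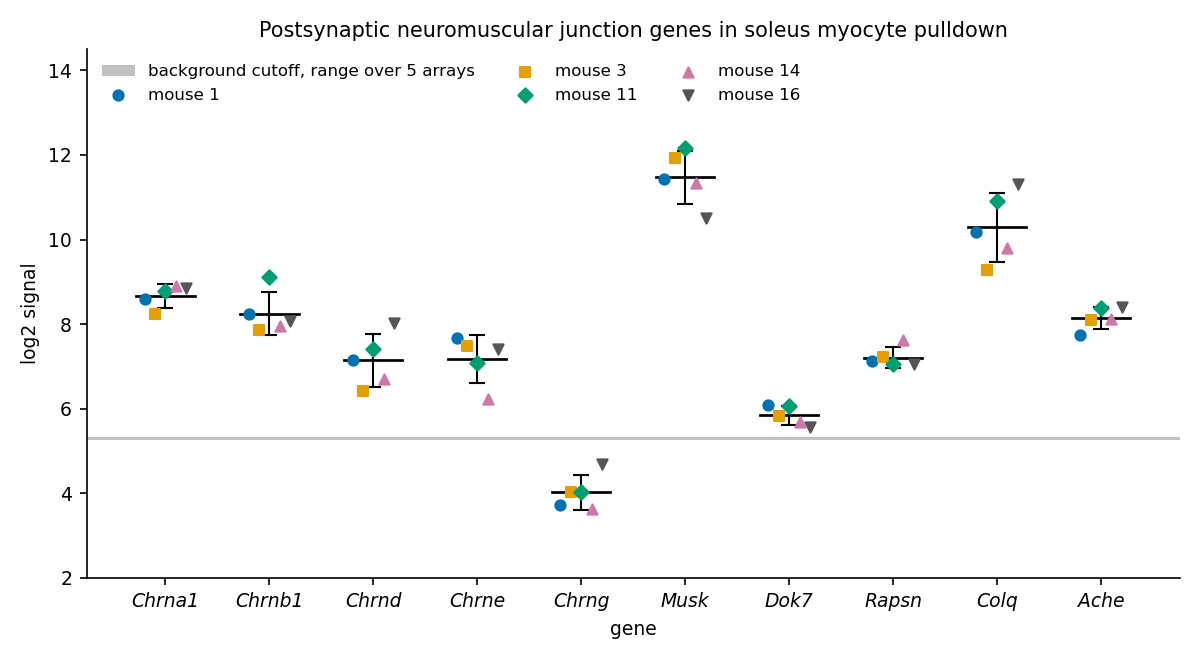
Log2 signal of the 10 genes (x axis) in each of 5 mice (points), with the mean (line) and SD (bars), and the range of the background cutoff over the arrays (grey band, 5.25 to 5.32). All points of 9 genes sit above the band, *Dok7* nearest to it, and all 5 points of *Chrng* sit below it, between 3.63 and 4.69.

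The subunits that fetal and adult receptors share were all above background. *Chrna1*, which encodes the subunit that carries most of each acetylcholine binding site, read 8.59, 8.23, 8.78, 8.91 and 8.86 in mice 1, 3, 11, 14 and 16. Its signals lay close together, with mouse 3 lowest, and their mean of 8.67 ± 0.28 (SD, n = 5) was 3.40 above the cutoff (limma, SE 0.15 and adjusted *p* = 6.29e-10). *Chrnb1*, the beta subunit gene, read 8.24, 7.86, 9.11, 7.96 and 8.08 in the same mice. Mouse 11 was the highest and the other 4 lay within a narrow range, with a mean of 8.25 ± 0.50 (SD, n = 5) at a distance of 2.97 (limma, SE 0.19 and adjusted *p* = 2.1e-08). *Chrnd*, the delta subunit gene, read 7.15, 6.41, 7.40, 6.70 and 8.03. It varied more, from mouse 3 at the low end to mouse 16 at the high end, around a mean of 7.14 ± 0.63 (SD, n = 5) that was 1.86 above the cutoff (limma, SE 0.21 and adjusted *p* = 5.47e-06).

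The adult and the fetal subunit fell on different sides of background. *Chrne*, the adult epsilon subunit gene, read 7.67, 7.48, 7.07, 6.23 and 7.41 in mice 1, 3, 11, 14 and 16. Every mouse was above its array's cutoff, mouse 14 by the least, and the mean of 7.17 ± 0.57 (SD, n = 5) stood 1.89 above it (limma, SE 0.20 and adjusted *p* = 2.61e-06). *Chrng*, the fetal gamma subunit gene, read 3.72, 4.04, 4.03, 3.63 and 4.69, with mouse 16 highest and still below the cutoff. Its mean of 4.02 ± 0.42 (SD, n = 5) was at a distance of -1.25 (limma, SE 0.17 and adjusted *p* = 2.83e-05). Since most odorant receptor genes lie below their own 95th percentile by construction, this *p* does not show that the transcript is absent. Odorant receptor genes with a lower mean than *Chrng* were 49.4% of the set, which put *Chrng* at its middle. *Chrnd* and *Chrng* are neighbors on chromosome 1 with 0 annotated genes between them (RefSeq, GRCm38.p6), and *Chrnd* was called while *Chrng* was not.

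The other subunits of the nicotinic receptor family served as a comparison within the family. These are known mainly from neurons and, for *Chrna9* and *Chrna10*, from hair cells of the inner ear. Of 11 such genes, 0 were called by limma and 0 lay above at an unadjusted *p* under 0.05, against 4 of the 5 muscle subunit genes. Their mean signals ran from 3.01 for *Chrna5* to 5.10 for *Chrna2*, and their median distance from the cutoff was -1.04. *Chrna2* read 5.23, 5.12, 5.27, 6.11 and 3.75 in mice 1, 3, 11, 14 and 16, and was above the cutoff in mouse 14 only. *Chrna4* at 4.98 ± 0.24 and *Chrna9* at 4.91 ± 0.35 (SD, n = 5 each) followed, above the cutoff in 0 mice. The *Chrng* signal thus lay within the span of these 11 genes.

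**Figure D2:**
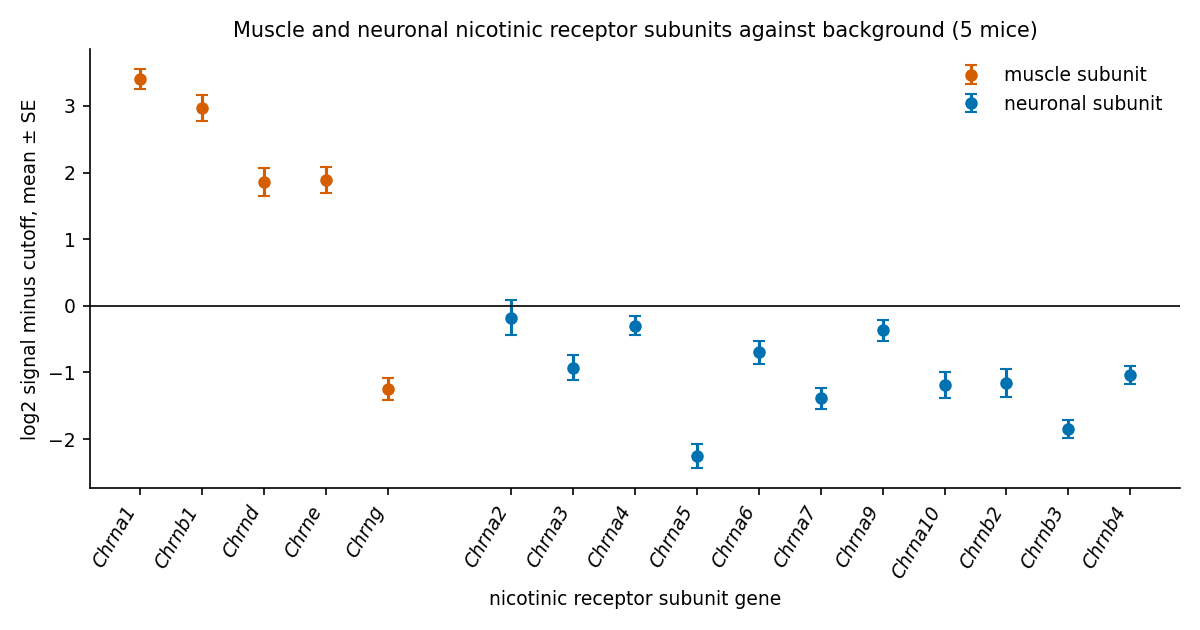
Mean distance of log2 signal from the background cutoff (y axis, bars are standard errors from limma, n = 5 mice) for 5 muscle and 11 neuronal nicotinic receptor subunit genes. *Chrna1*, *Chrnb1*, *Chrnd* and *Chrne* lie between 1.86 and 3.40, whereas *Chrng*, at -1.25, lies among the neuronal genes, none of which is called.

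Among the clustering genes, *Musk*, the receptor kinase that agrin activates through LRP4, read 11.42, 11.93, 12.16, 11.34 and 10.52 in mice 1, 3, 11, 14 and 16. It was far above the cutoff in every mouse, with mouse 16 lowest, and its mean of 11.47 ± 0.63 (SD, n = 5) was 6.20 above it (limma, SE 0.21 and adjusted *p* = 6.23e-11). Its probe set is annotated to several RefSeq transcripts, which cannot be told apart here. *Rapsn*, the scaffold that anchors receptors, read 7.13, 7.22, 7.05, 7.62 and 7.05. Mouse 14 was the highest and the other 4 were nearly equal, with a mean of 7.21 ± 0.24 (SD, n = 5) and a distance of 1.94 (limma, SE 0.14 and adjusted *p* = 1.08e-07). *Dok7*, the adaptor that activates MuSK from inside the fiber, was the called member nearest to background. It read 6.08, 5.83, 6.07, 5.69 and 5.56, above the cutoff in 5 of 5 mice by small amounts. The mean of 5.84 ± 0.23 (SD, n = 5) was 0.57 above the cutoff (limma, SE 0.14 and adjusted *p* = 0.0025), and 99.5% of odorant receptor genes had a lower mean. Its call was lost with vomeronasal receptor genes as background (0.34, with limma's adjusted *p* = 0.0629), at the 99th odorant percentile (0.0283, with limma's adjusted *p* = 0.866) and with beta-defensin and keratin-associated protein genes as background (0.0136, with limma's adjusted *p* = 0.929).

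Partners of this pathway were read beside them, from a list of 12 genes of which 10 were measured. Of these, 9 (90%) were called, against 43.5% of all genes, with a median distance of 5.71, and *Agrn* was the gene not called. *Lrp4*, the agrin receptor, had 8.43 ± 0.50 (SD, n = 5), with 5 of 5 mice above the cutoff. *Agrn*, whose synaptic form comes from the motor neuron, read 4.91, 4.75, 4.11, 4.32 and 4.53 in mice 1, 3, 11, 14 and 16, below the cutoff in each. The highest signals were those of the small GTPase genes *Cdc42* at 16.50 ± 0.10 and *Rac1* at 16.00 ± 0.22 (SD, n = 5 each), which act in actin remodeling in many cells, and of *Prkar1a*, a regulatory subunit of protein kinase A, at 12.92 ± 0.28 (SD, n = 5).

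Both esterase genes were above background. *Colq*, the collagen tail, read 10.17, 9.29, 10.90, 9.80 and 11.32 in mice 1, 3, 11, 14 and 16. Mouse 16 was the highest and mouse 3 the lowest, 2.03 log2 units apart, the widest range of any member. The mean of 10.29 ± 0.82 (SD, n = 5) was 5.02 above the cutoff (limma, SE 0.26 and adjusted *p* = 2.89e-09). *Ache*, the catalytic subunit, read 7.75, 8.10, 8.39, 8.12 and 8.40 as the mean of 2 probe sets, with mouse 1 lowest. Its mean of 8.15 ± 0.26 (SD, n = 5) was 2.87 above the cutoff (limma, SE 0.15 and adjusted *p* = 3.53e-09). The probe sets did not vary alike. The first read 7.32, 7.59, 7.44, 7.59 and 7.56, a nearly flat series (7.50 ± 0.12, SD, n = 5). The second, annotated to another RefSeq transcript, read 8.18, 8.60, 9.34, 8.66 and 9.23, with mice 11 and 16 high (8.80 ± 0.48, SD, n = 5). Both were above the cutoff in 5 of 5 mice.

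The members differed in the mice in which they read highest and lowest. Mouse 16 had the highest signal of 4 members (*Chrnd*, *Chrng*, *Colq* and *Ache*) and the lowest of 3 (*Musk*, *Dok7* and *Rapsn*). Some of these ranks were near ties. *Ache* read 8.40 in mouse 16 and 8.39 in mouse 11, and neither of its probe sets was highest in mouse 16. *Rapsn* read 7.05 in both mice 11 and 16, and *Chrng* lay below the cutoff in every mouse. Mouse 3 had the lowest signal of 4 members (*Chrna1*, *Chrnb1*, *Chrnd* and *Colq*) and the highest of 0. Averaged over the members, deviations from each gene's own mean were between -0.22 in mouse 14 and 0.27 in mouse 11. Of 45 pairs of members, 1 had the same order of mice, *Chrnd* and *Colq*, both with mouse 3 lowest, then mice 14, 1, 11 and 16. An identical order of 5 mice is rare even for genes that vary together, and some pair may match by chance. The count therefore does not decide whether members share a pattern. *Chrne* ran differently, with mouse 14 lowest and mouse 1 highest. With 5 mice, no correlation between genes was computed.

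**Figure D3:**
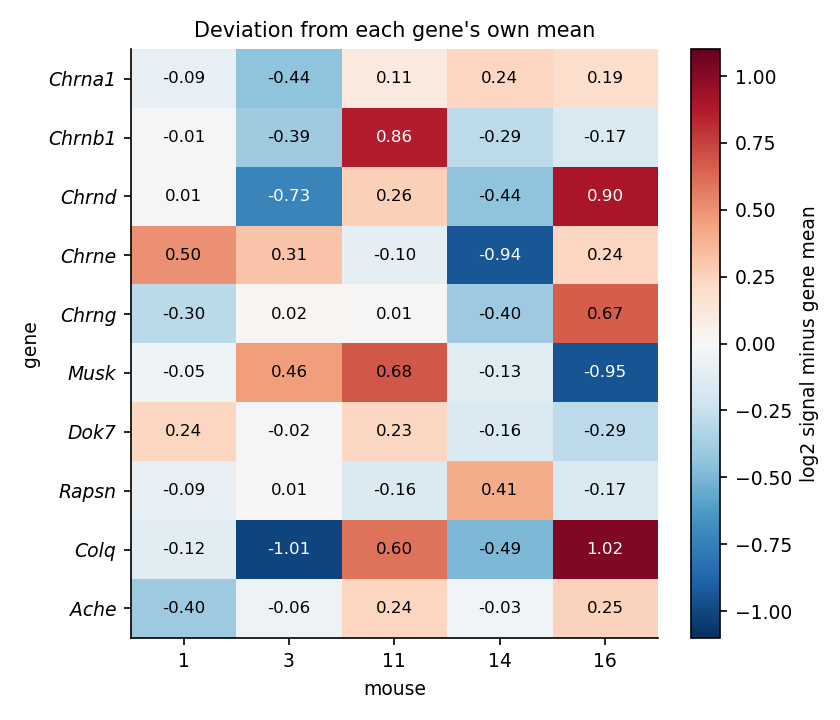
Log2 signal minus the gene's own mean over 5 mice, for the 10 genes (rows) in each mouse (columns), with the value written in each cell. *Colq* and *Chrnd* share their highest mouse, 16 (1.02 and 0.90), in which *Musk* is lowest (-0.95), and *Chrne* is lowest in mouse 14 (-0.94).

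The SD between mice ran from 0.23 for *Dok7* to 0.82 for *Colq*. The SD of *Colq* was larger than that of 95.6% of called genes, and those of *Musk* (88.6%), *Chrnd* (88.4%) and *Chrne* (83.4%) were also in the upper part. The SDs of *Dok7* (18.9%), *Rapsn* (20.1%), *Ache* (25.9%) and *Chrna1* (29%) were in the lower part. That of *Ache* is for the mean of 2 probe sets, whose own SDs were 0.12 and 0.48. The median SD was 0.46 over the 10 members, which include the uncalled *Chrng*, and 0.36 over called genes. Among 5185 called genes outside the list with at least the spread of the mean profile of the 4 called subunits, the profiles nearest to it over 5 mice were those of *Adipor1*, *B2m*, *Rps25*, *Imp4* and *Yif1a*, with root mean square differences between 0.0753 and 0.089 log2 units. That profile was low in mice 3 and 14 (-0.31 and -0.36) and high in mice 1, 11 and 16 (0.10, 0.28 and 0.29). It is a mean from which single subunits depart. In mouse 14, *Chrna1* was at 0.24 and *Chrnb1*, *Chrnd* and *Chrne* were at -0.29, -0.44 and -0.94. A search over so many genes with 5 mice finds close profiles in any case. Whether the 5 nearest genes resemble the subunits beyond chance was not tested.

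The side of the cutoff held for most members whichever background was used. *Chrne* was 3.14 above the 50th percentile of odorant receptor genes, 1.36 above the 99th and 1.34 above the 95th percentile of beta-defensin and keratin-associated protein genes, and was called each time. *Chrng* was at -0.98 from the 90th percentile and at -0.01 from the 50th (adjusted *p* = 0.967 from limma), and was called at none of the cutoffs tried.

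**Figure D4:**
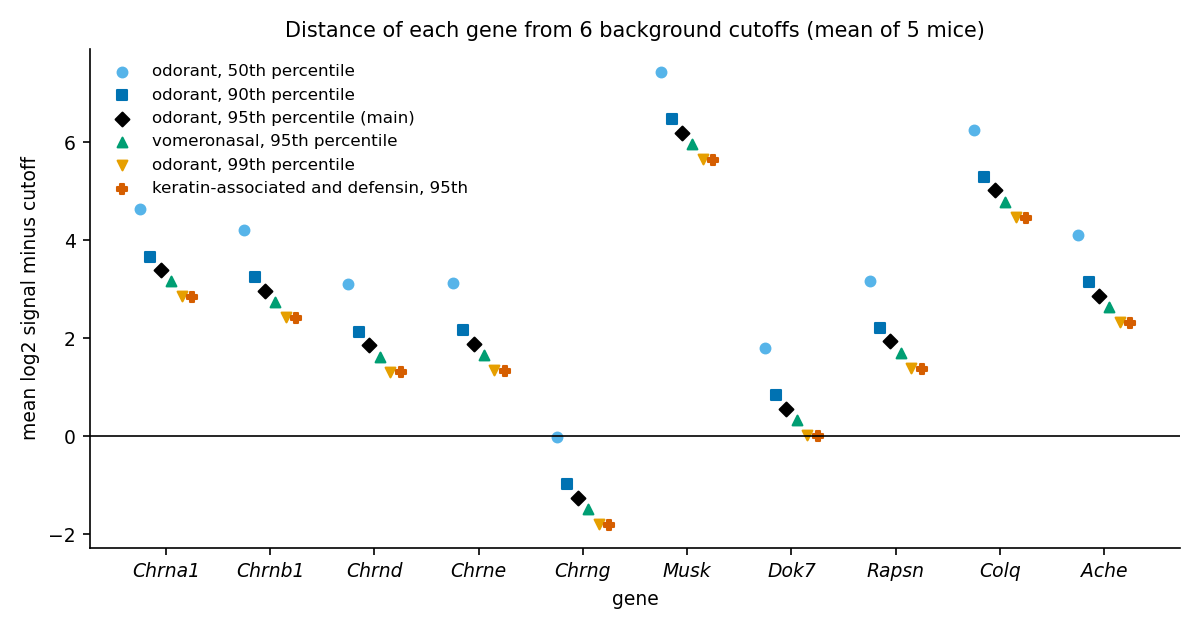
Mean distance of each gene's log2 signal (5 mice) from 6 background cutoffs, named in the legend. All genes other than *Chrng* and *Dok7* stay above 1 at every cutoff, *Dok7* reaches 0.0136, and *Chrng* lies at or below 0 throughout.

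Further lists of junction genes were read in the same way, against the 43.5% of all genes that were called. Of 17 scaffold and basal lamina genes measured, 9 (52.9%) were called (median distance 0.75), which is near that share, led by *Dtna*, the dystrobrevin gene, at 14.78 ± 0.25, the adhesion gene *Ncam1* at 10.13 ± 0.76 and *Lamb2*, a laminin chain of the synaptic cleft, at 10.03 ± 0.92 (SD, n = 5 each). Of 9 genes of neuregulin signaling and transcription beneath the synapse, 5 (55.6%) were called (median distance 0.80), also near it. The highest were the ETS factor genes *Gabpa* at 13.30 ± 0.31 and *Etv5* at 11.89 ± 0.63 and the partner gene *Gabpb1* at 6.37 ± 0.53 (SD, n = 5 each). *Erbb3* and *Gabpb2* were also called, and the receptor genes *Erbb2* and *Erbb4*, with *Nrg1* and *Etv4*, were not. Of 7 other genes linked to congenital myasthenia, 5 (71.4%) were called (median distance 1.92), with *Prepl* at 8.79 ± 0.54, *Gfpt1* at 8.49 ± 0.32 and *Dpagt1* at 7.35 ± 0.80 (SD, n = 5 each).

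Genes known to rise in denervated or developing muscle were read beside *Chrng*. Of 12 measured, 10 (83.3%) were called (median distance 3.25), against 43.5% of all genes. The 10 include *Myh8*, whose source is uncertain (below). Such calls mean signal above background, and within 1 group no rise could be tested. *Myog*, which also drives the Cre of these mice, read 7.09, 6.13, 7.15, 7.17 and 8.09 in mice 1, 3, 11, 14 and 16. Mouse 16 was the highest and mouse 3 the lowest. *Chrng* was also highest in mouse 16, but it lay below the cutoff in every mouse and was lowest in mouse 14. *Myh3*, embryonic myosin heavy chain, read 8.96, 8.33, 8.53, 7.95 and 9.60, above the cutoff in every mouse. *Myf6* had 13.06 ± 0.75, and *Cdkn1a* had 10.25 ± 2.11 (SD, n = 5 each) with 13.68 in mouse 11. *Myh8*, perinatal myosin heavy chain, read at the highest signal of the array in every mouse, as did *Myh2*. Close sequence likeness among myosin heavy chain genes leaves the source of the *Myh8* signal uncertain. Whether such likeness also adds to the *Myh3* signal was not tested. *Runx1*, a denervation-responsive factor, was below the cutoff in every mouse at 4.60 ± 0.30 (SD, n = 5).

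Markers of the nerve side were mostly at background. Over all genes, 43.5% were called. Of 12 motor nerve genes, 1 (8.33%) was called, *Syp* at 5.92 ± 0.33 (SD, n = 5). The defining genes *Chat* (3.07 ± 0.19), *Slc18a3* (3.10 ± 0.28) and *Slc5a7* (3.28 ± 0.22, SD, n = 5 each) were under the cutoff in all 5 mice. Summed over the list, nerve signals lay between 47.52 and 49.59 in the 5 mice. Of 7 Schwann cell genes measured, 2 (28.6%) were called, *Mbp* at 7.22 ± 0.53 and *Erbb3* at 6.12 ± 0.23 (SD, n = 5 each). *S100b*, *Ngfr* and *Sox10* lay below the cutoff in every mouse, and the list's sums ran from 32.53 to 34.63. *Erbb3* was also counted above among the genes of neuregulin signaling. All 7 fibroblast genes measured were called, led by *Dcn* at 9.34 ± 0.80, *Lum* at 7.66 ± 0.56 and *Col3a1* at 7.04 ± 0.51 (SD, n = 5 each), with sums from 45.86 to 53.72. Of 8 satellite cell genes, 4 (50%) were called (*Sdc4*, *Itga7*, *Cdh15* and *Myod1*, sums from 51.92 to 56.65), and the defining gene *Pax7* lay below the cutoff in every mouse. *Myod1* was also counted above among the genes of denervated or developing muscle. Of 8 endothelial genes, 4 (50%) were called (*Cdh5*, *Kdr*, *Tek* and *Pecam1*, sums from 44.57 to 49.28). Both counts are near the share over all genes. Of 7 immune genes, 0 were called by limma, with 0 at an unadjusted *p* under 0.05 and sums from 29.36 to 31.77. The part of RNA from these cells in the members' signals was not tested.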

How the data were processed

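RNA eluates of 5 mice were hybridized to Affymetrix mouse Clariom S arrays, and the log2 signals the authors deposited came from Transcriptome Analysis Console 4.0 (default configuration). Neither the genome build nor the summarization method is named in the sources read. Array medians lay between 5.11 and 5.20, so a shift common to one array may have been leveled. Of 22206 probe sets, 19572 were annotated to 1 symbol, 0 to several and 2634 to none. Probe sets of a gene were averaged. The background cutoff of each array was subtracted and the difference tested by a one-sample fit (lmFit, eBayes) of limma 3.58.1 under R 4.3.3, checked on simulated data. *p*-values cover the spread between mice. Arrays have no read depth, and their number limits precision. No signal entered the rule for the members, but the members, lists, markers, named genes and alternatives were chosen with earlier results of these data known. Named are all members, the 3 highest of each list of junction genes, genes called in lists with 3 or fewer calls, *Myog*, *Myh3* and *Myh8* whatever their value, and the 5 nearest profiles. *Chrna5*, *Agrn*, *Lrp4*, *Runx1*, *Gabpb2*, *Erbb2*, *Erbb4*, *Nrg1*, *Etv4*, the Y-linked genes and the other cell type markers named fall outside this rule. They were chosen after their values were seen. Genes listed but not measured were not analysed here. Alternatives were other background sets and percentiles, priors, normalization, probe set rule, a filter on low genes and mice left out. Tables were made with Python 3.11.15 and pandas 2.3.3.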

Additional observations from a re-analysis of the deposited data

Results flagged for a closer look

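No member had a mouse far from the other 4 by Dixon's ratio, the gap to the nearest mouse over the whole range (critical value 0.71 for 5 mice). Of 50 genes named and tested, 5 did, where chance gives about 1 in 20. *Chrna9* had a ratio of 0.771, with 4.30 in mouse 14 against 4.97 to 5.17 in the other mice, all below the cutoff. For *Acta1*, *Mb*, *Myh2* and *Myh8* the ratio was 1, because each read at its array's ceiling, which was 19.90 in mouse 16 and 19.93 in the other 4. No member read at that ceiling in any mouse.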

How the results depend on the processing

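Over 159 single results of the 10 members under the alternatives, 155 kept their direction and side of the threshold, 4 no longer passed and 0 reversed. At the 50th percentile, *Chrng* was at -0.00825, 4 neuronal nicotinic subunits were called in place of 0, and 12814 genes were called in place of 8482. The other 3 were the calls of *Dok7* given above, and the number of members called was then 8. In every other alternative 9 members were called. With each mouse left out in turn, distances lay between 1.78 and 2.13 for *Chrne*, -1.43 and -1.15 for *Chrng*, and 0.51 and 0.63 for *Dok7* (adjusted *p* at most 0.0124 from limma). Over mice 3, 11 and 14 only, *Chrne* was at 1.65 and *Chrng* at -1.37. The filter on low genes removed *Chrng* and all 11 neuronal subunits. No paired analysis was possible because the series holds 1 group.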
